A study of Sus scrofa with 6 samples.

Results

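Amino acid transporters are the membrane proteins that carry amino acids into and out of cells and their organelles. The genes described here are those of the solute carrier families SLC1, SLC3, SLC6, SLC7, SLC36, SLC38 and SLC43, chosen by the gene symbol printed in the expression table and not by any measured value. The rule found 41 gene symbols among the 13727 distinct symbols of annotated loci. They were 6 of family SLC1, 12 of SLC6, 10 of SLC7, 3 of SLC36, 9 of SLC38 and 1 of SLC43, and none of SLC3. Where a symbol stood on several loci, as it did for 6 genes, the locus of the highest mean level was used.

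The livers came from male pigs of the PIC breed, killed at 150 days of age after a fast. Normal pigs had a birth weight of about 1.49 kg, and pigs with intrauterine growth restriction (IUGR) a birth weight of about 0.97 kg. IUGR was defined by birth weight within the litter, with no treatment or genetic change that set the groups apart. All pigs of the study had an intravenous glucose tolerance test, with dextrose infused, on the day before that age. The study took 1 IUGR and 1 normal piglet from each litter. Poly(A) RNA of 3 pigs per group was sequenced, 1 library a pig, and the labels do not say which of these pigs were litter mates.

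Transport of an amino acid across the plasma membrane is the step that precedes its use for urea, glucose, protein or glutathione in the liver. Members of SLC38 move glutamine, alanine and other small neutral amino acids with sodium, members of SLC7 move cationic or large neutral amino acids, many of them bound to a heavy chain of family SLC3, and members of SLC1 move glutamate, aspartate or neutral amino acids. SLC6 carriers use sodium and chloride for betaine, imino acids and neurotransmitters, SLC36 carriers use protons, and SLC43A2 (LAT4) lets branched-chain amino acids and phenylalanine pass down their gradient.

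Levels are given as FPKM, the fragments mapped to a locus relative to its length and to all mapped fragments, so that levels of different genes can be set side by side. No counts of reads are at hand, so it is unknown how many fragments a value rests on. Fold changes are IUGR minus normal on the scale of log2(FPKM + 1), from limma over the 14727 annotated loci whose FPKM averaged 0.3 or more, and a change was called at a Benjamini-Hochberg adjusted p under 0.05. The smallest p that an exact permutation of 3 against 3 pigs allows for 1 gene is 0.1.

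The liver label was checked on marker genes. The summed FPKM of 8 hepatocyte markers was 9705 to 16957 in normal and 12230 to 19331 in IUGR pigs. This includes ALB at 0 in all 6 libraries, where its status is HIDATA in place of OK, so these 0 values do not measure its level. Markers of exocrine pancreas, skeletal muscle and kidney summed to at most 4.92 FPKM, with PNLIP and UMOD at 0. IUGR 2 and IUGR 3 stood close together: the robust SD of the log2 ratio between them, over 4848 loci averaging 10 FPKM or more, was 0.10, and that of any other pair was 0.26 to 0.33. Normal 1, IUGR 2 and IUGR 3 had a higher total mapped ratio (the share of reads that mapped) than Normal 2, Normal 3 and IUGR 1. Annotated loci as a whole were higher in the former set, and the median of the tested loci was also 0.15 higher in IUGR than in normal pigs on the log2 scale.

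The transporters spanned a wide range of levels. Of the 41 genes, 11 had a mean of at least 5 FPKM over the 6 pigs, 9 lay between 1 and 5, SLC38A5 was at 0.418 FPKM, and 20 lay under the filter of 0.3. In all, 21 genes were tested, namely 8 of SLC38, 4 of SLC7, 3 of SLC1, 3 of SLC6, 2 of SLC36 and SLC43A2. A single gene dominated the families: SLC38A4 made up 53.9 to 67.6% of the summed FPKM of all 41 genes in each pig. It was the highest of them in all 6 pigs, and SLC38A3 was the next in 5 of 6, the exception being Normal 1, where SLC7A2 stood above it.

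**Figure D1:**
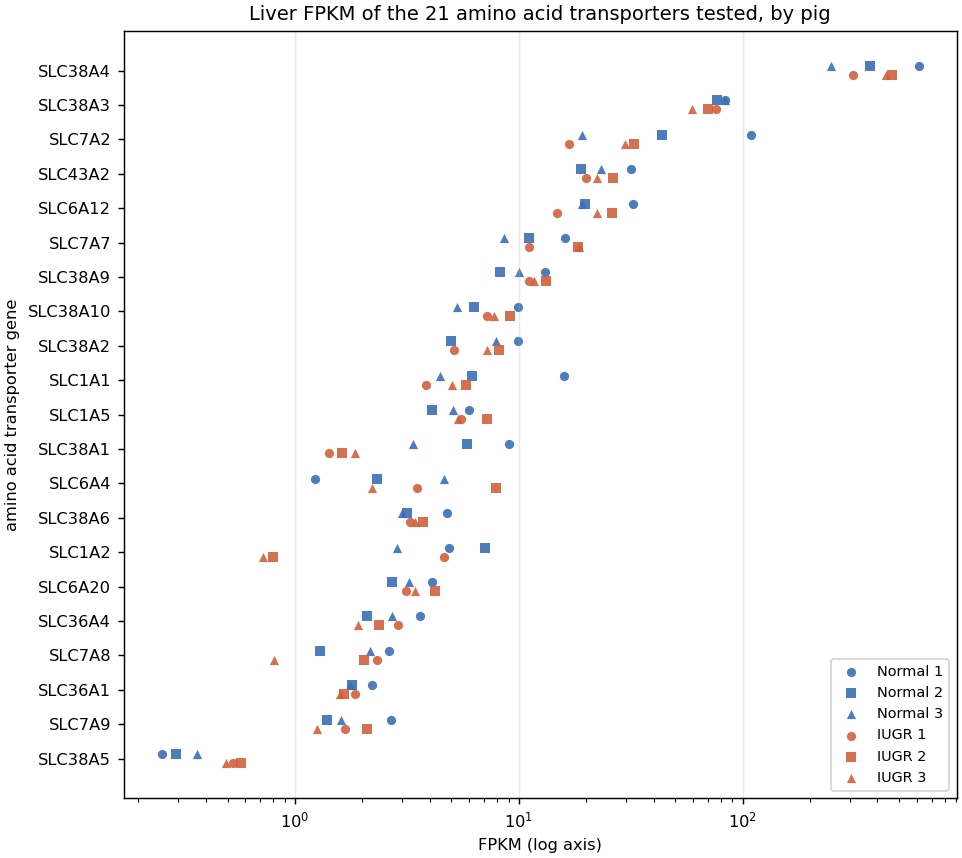
FPKM of the 21 tested amino acid transporters (log axis) in each of the 6 livers, ordered by mean level, with normal pigs in blue and IUGR pigs in red, and circles, squares and triangles for pigs 1, 2 and 3. SLC38A4 stands at 248 FPKM or more in every pig, and the separate blue and red points of SLC38A1, SLC38A3 and SLC38A5 mark the genes whose groups did not overlap.

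SLC38A4 (SNAT4), a sodium-coupled carrier of neutral and cationic amino acids that is typical of hepatocytes, lies at chr5:80391398-80427093 (build Sscrofa10.2, ENSSSCG00000026597). Its FPKM was 611, 371 and 248 in Normal 1, 2 and 3, and 312, 464 and 436 in IUGR 1, 2 and 3. The IUGR values lay inside the range of the normal values, with means of 410 ± 185 and 404 ± 81.1 FPKM (SD, n = 3 pigs each). It ranked 180th of the 14727 tested loci by mean level. The log2 fold change was 0.06 (95% interval -0.81 to 0.92, limma adjusted p = 0.978), and its sign turned under 9 of the 22 alternative settings, for example -0.13 after the libraries were scaled to the same median.

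SLC38A3 (SNAT3), the glutamine, asparagine and histidine carrier of the liver's system N, was the second most abundant. It lies at chr13:35860038-35878405. The FPKM of Normal 1, 2 and 3 was 82.9, 77.1 and 83.6, and that of IUGR 1, 2 and 3 was 76.2, 70.05 and 59.3. All 3 IUGR pigs lay below all 3 normal pigs, but the gap between the nearest pigs was small and the difference was not called. The group means were 81.2 ± 3.54 and 68.5 ± 8.54 FPKM (SD, n = 3), and the log2 fold change was -0.25 (95% interval -0.85 to 0.35, limma adjusted p = 0.897). After scaling by the median of all tested loci, the groups overlapped.

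SLC38A1 (SNAT1), a system A carrier of glutamine and alanine, showed the lowest fold change of the transporters. At its main locus, chr5:79935174-80001246, the FPKM was 9.06, 5.84 and 3.37 in Normal 1, 2 and 3, and 1.41, 1.63 and 1.86 in IUGR 1, 2 and 3. The IUGR livers were close to each other, and each was below every normal liver, among which the values spread widely. Means were 6.09 ± 2.85 and 1.64 ± 0.224 FPKM (SD, n = 3), so the normal mean was 3.72 times the IUGR mean. The log2 fold change of -1.35 (SE 0.27, 95% interval -1.94 to -0.76) did not pass the threshold (limma adjusted p = 0.168). It passed with robust variance estimation (adjusted p = 0.0232) and without IUGR 1 (0.0407), and was below 0 under every alternative, with an adjusted p of up to 0.663.

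A second locus of the same symbol over the same stretch of chromosome 5 moved differently. Its FPKM was 0.871, 1.08 and 0.599 in Normal 1, 2 and 3, and 1.83, 1.07 and 1.04 in IUGR 1, 2 and 3, a log2 fold change of 0.32 (limma adjusted p = 0.831). Summed over both loci, SLC38A1 stood at 9.93, 6.92 and 3.96 in normal against 3.24, 2.70 and 2.91 in IUGR pigs. The groups still did not overlap, and the log2 difference of the sums was -0.94. How the fragments were divided between the overlapping loci was not tested.

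Markers of other liver cells were summed in each pig, and 0 of them were called by limma between the groups. The summed FPKM of 7 stellate cell and fibroblast markers (leaving out COL3A1 after its estimate was seen to have failed in Normal 1) was 106, 51.9 and 67.3 in normal against 138, 142 and 112 in IUGR pigs, and 4 of the 7 did not overlap between the groups with IUGR higher (8.39% of all loci). Neutrophil markers summed to 3.48 to 9.0 and 11.9 to 20.6 FPKM, and endothelial markers to 180 to 348 and 330 to 410 FPKM, the latter with a small overlap. Markers of cholangiocytes summed to 13.7 to 26.2 and 22.7 to 54.0 FPKM and those of dividing cells to 19.5 to 29.3 and 20.3 to 42.1 FPKM, both overlapping. At an unadjusted limma p under 0.05, 6 of 8 stellate, 3 of 5 neutrophil and 2 of 6 endothelial markers were higher in IUGR pigs. So were 1 of 4 cholangiocyte and 3 of 4 dividing cell markers, against 6.0% of all loci. The 6 stellate markers include COL3A1, whose estimate failed in Normal 1. Of 6 Kupffer cell and macrophage, 6 T, NK and B cell and 3 erythroid markers, 0 had such a p in either direction. The summed FPKM of the Kupffer cell and macrophage, of the T, NK and B cell and of the erythroid markers each overlapped between the groups. The part of these markers in the level of SLC38A1 or of any other transporter was not tested. In these whole-liver samples, fewer cells of a type and less RNA per cell cannot be told apart.

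SLC38A2 (SNAT2), the system A carrier that many cells raise when amino acids are short, lies next to SLC38A1 on chromosome 5. Its values were 9.95, 4.96 and 7.89 FPKM in Normal 1, 2 and 3, and 5.12, 8.13 and 7.21 in IUGR 1, 2 and 3. The groups overlapped over most of their range (7.60 ± 2.51 and 6.82 ± 1.54 FPKM, SD, n = 3), with a log2 fold change of -0.11 (95% interval -0.70 to 0.48).

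SLC38A9, an arginine sensor of the lysosome that signals to mTORC1, had an FPKM of 13.0, 8.25 and 10.04 in normal against 11.1, 13.3 and 11.7 in IUGR pigs, and a log2 fold change of 0.21 (95% interval -0.32 to 0.73). SLC38A10 had 9.93, 6.34 and 5.31 FPKM in normal and 7.22, 9.13 and 7.74 in IUGR pigs, a log2 fold change of 0.18 (-0.37 to 0.73). In both genes the groups overlapped, and the normal values spanned more than the IUGR values. SLC38A6 was nearly level, at 3.67 ± 0.986 and 3.49 ± 0.225 FPKM (SD, n = 3).

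SLC38A5 (SNAT5), a second system N carrier, was the lowest tested transporter and lies on chromosome X. Its FPKM was 0.253, 0.293 and 0.367 in Normal 1, 2 and 3, and 0.528, 0.575 and 0.493 in IUGR 1, 2 and 3. Every IUGR pig was above every normal pig, at means of 0.305 ± 0.0576 and 0.532 ± 0.0411 FPKM (SD, n = 3). The log2 fold change of 0.23 (95% interval -0.04 to 0.50, limma adjusted p = 0.806) understates the ratio because 1 was added to such small values, and it was not called. SLC38A11 lay under the filter, at 0.0585 FPKM.

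**Figure D2:**
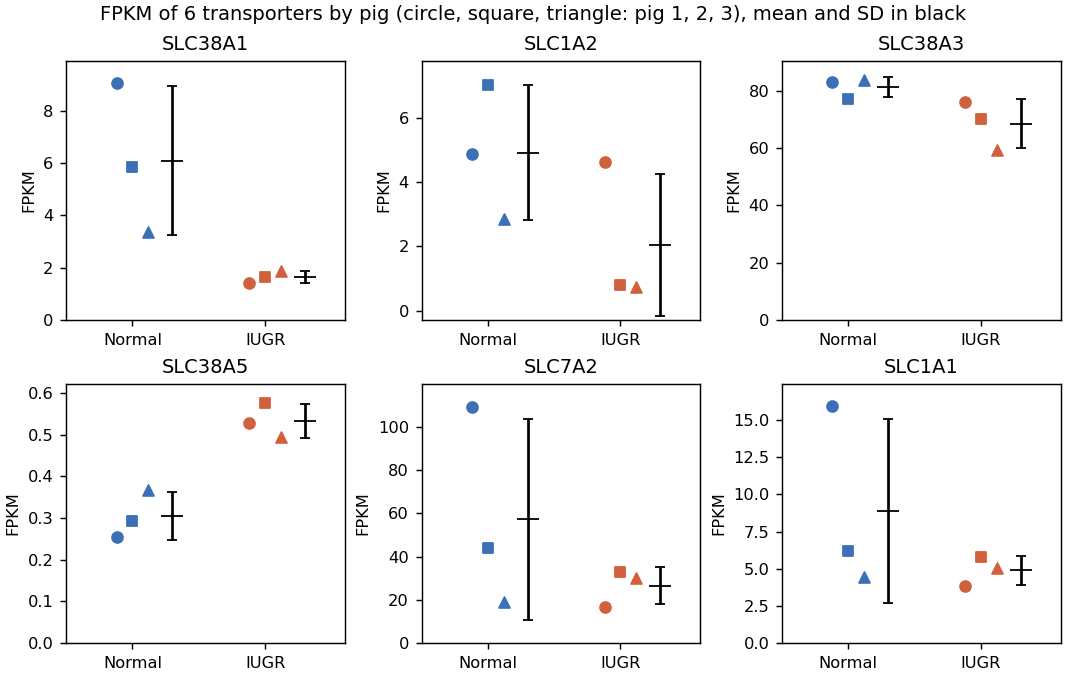
FPKM of SLC38A1, SLC1A2, SLC38A3, SLC38A5, SLC7A2 and SLC1A1 (each with its own linear axis) in 3 normal (blue) and 3 IUGR (red) pigs, with the mean and SD of each group in black. The groups of SLC38A1, SLC38A3 and SLC38A5 are apart, IUGR 1 at 4.62 FPKM of SLC1A2 lies among the normal pigs, and Normal 1 stands alone for SLC7A2 (109 FPKM) and SLC1A1 (15.9 FPKM).

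Among the SLC7 genes, SLC7A2 (CAT-2), the carrier of arginine, lysine and ornithine in hepatocytes, was the highest, at chr17:5704522-5726550. Normal 1, 2 and 3 had 109, 43.7 and 19.1 FPKM, and IUGR 1, 2 and 3 had 16.7, 32.8 and 29.9. Normal 1 stood at 2.50 times the next pig, Normal 2 was also above the IUGR pigs, and Normal 3 lay within their range. The means were 57.3 ± 46.6 and 26.5 ± 8.58 FPKM (SD, n = 3), with a log2 fold change of -0.81 (95% interval -1.88 to 0.27, limma adjusted p = 0.848). Without Normal 1 it was -0.18, and it was -1.79 once the mapped ratio entered as a covariate. The spread of SLC7A2 within the groups was larger than that of 98.9% of the tested loci. SLC7A1 (CAT-1), the cationic carrier of most other tissues, was just under the filter, at 0.242 ± 0.0408 and 0.350 ± 0.0130 FPKM (SD, n = 3).

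SLC7A7 (y+LAT1), which exports cationic amino acids in exchange for neutral ones and sodium, had an FPKM of 16.1, 11.1 and 8.59 in Normal 1, 2 and 3, and 11.1, 18.3 and 18.6 in IUGR 1, 2 and 3. The higher values were those of Normal 1, IUGR 2 and IUGR 3, the pigs of the higher mapped ratio. The means were 11.9 ± 3.8 and 16.0 ± 4.26 FPKM (SD, n = 3), and the log2 fold change was 0.41 (95% interval -0.22 to 1.04, limma adjusted p = 0.875). SLC7A8 (LAT2), a carrier of large neutral amino acids, was at 2.03 ± 0.682 and 1.72 ± 0.808 FPKM, and SLC7A9, the light chain of the cystine carrier of kidney and gut, at 1.89 ± 0.703 and 1.68 ± 0.423 FPKM. Summed over its 3 loci, SLC7A9 was at 3.76 ± 1.29 and 2.86 ± 0.411 FPKM (SD, n = 3). Of its further loci, 1 had an unadjusted p under 0.05 (log2 fold change -0.47, limma adjusted p = 0.722), against 0.794% of all loci lower at such a p.

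The heavy chains SLC3A1 and SLC3A2 have no symbol in the expression table and were found through a table of gene names, as were 7 further genes of these families. SLC3A2 (4F2hc), the partner of SLC7A7 and SLC7A8, had 15.2, 7.17 and 8.15 FPKM in normal and 8.59, 11.8 and 10.1 in IUGR pigs, a log2 fold change of 0.06 (limma adjusted p = 0.968). SLC3A1 (rBAT), the partner of SLC7A9, had 16.1, 5.75 and 7.95 FPKM in normal and 6.39, 21.4 and 18.4 in IUGR pigs (0.55, adjusted p = 0.881). Both heavy chains were higher in Normal 1, IUGR 2 and IUGR 3 than in the other pigs, as were 44.3% of all tested loci. SLC7A11 (xCT), the cystine and glutamate exchanger, was at 11.2 ± 2.64 and 12.3 ± 1.21 FPKM (SD, n = 3), and its log2 fold change was 0.14 (adjusted p = 0.914).

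The glutamate carriers of family SLC1 were of moderate level. SLC1A2 (GLT-1), known in brain as the main glutamate carrier of astrocytes, lies at chr2:28071497-28131657. Its FPKM was 4.89, 7.05 and 2.84 in Normal 1, 2 and 3, and 4.62, 0.801 and 0.718 in IUGR 1, 2 and 3. IUGR 2 and IUGR 3 were far below every normal pig, whereas IUGR 1 was within their range, so the groups overlapped. The means were 4.93 ± 2.1 and 2.05 ± 2.23 FPKM (SD, n = 3), with a log2 fold change of -1.13 (SE 0.40, 95% interval -2.0 to -0.26, limma adjusted p = 0.553).

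The size of the SLC1A2 fold change varied with IUGR 1 and with the sets of libraries, and it was below 0 under every alternative. Without IUGR 1 the log2 fold change was -1.69 and was called (limma adjusted p = 0.00303), but the remaining IUGR pigs were the pair that stood close together over all genes. Within the libraries of the higher mapped ratio the difference was -1.74, and within those of the lower ratio, where IUGR 1 was the lone IUGR pig, it was 0.01. With the mapped ratio as a covariate the log2 fold change was -0.57, and with the set of libraries as a factor it was -0.86.

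SLC1A1 (EAAC1), a carrier of glutamate, aspartate and cysteine, had 15.9, 6.2 and 4.45 FPKM in Normal 1, 2 and 3, and 3.84, 5.79 and 5.05 in IUGR 1, 2 and 3. Normal 1 was 2.57 times as high as the next pig, and the others lay close together. The log2 fold change of -0.58 (95% interval -1.34 to 0.19, limma adjusted p = 0.842) was -0.10 without Normal 1. On unscaled FPKM, SLC7A2, SLC1A1 and SLC38A1 were the transporters at least 1.5 times as high in Normal 1 as in each other pig, against 3.41% of all tested loci. After scaling by the median, SLC38A1 was at 7.48 in Normal 1 and 6.72 in Normal 2, the next pig. SLC7A2 was then at 90.2 and 50.3 and SLC1A1 at 13.2 and 7.13 in the same pigs. SLC1A5 (ASCT2), an exchanger of glutamine and other neutral amino acids, had 6.02, 4.08 and 5.06 FPKM in normal and 5.53, 7.17 and 5.34 in IUGR pigs, a log2 fold change of 0.22 (-0.27 to 0.71). SLC1A3, SLC1A6 and SLC1A7, known mainly from nervous tissue and retina, had means of at most 0.0333 FPKM.

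Of the 12 SLC6 genes, SLC6A12 (BGT-1), the carrier of betaine and GABA, was the highest. Its FPKM was 32.5, 19.8 and 19.2 in Normal 1, 2 and 3, and 14.8, 26.1 and 22.4 in IUGR 1, 2 and 3. The groups overlapped, at means of 23.9 ± 7.46 and 21.1 ± 5.77 FPKM (SD, n = 3) and a log2 fold change of -0.16 (95% interval -0.81 to 0.48, limma adjusted p = 0.915). SLC6A20, a carrier of proline and other imino acids, was at 3.35 ± 0.707 and 3.60 ± 0.550 FPKM. SLC6A4, the serotonin carrier, varied most of the tested SLC6 genes, from 1.23 to 4.62 FPKM in normal and from 2.2 to 7.87 FPKM in IUGR pigs (log2 fold change 0.54, limma adjusted p = 0.862). Further loci of these symbols were lower in level. That of SLC6A4 at 0.169 ± 0.141 and 0.468 ± 0.124 FPKM did not overlap between the groups (0.33, limma adjusted p = 0.656), and that of SLC6A20 was at 1.69 ± 0.876 and 2.79 ± 0.386 FPKM (SD, n = 3; 0.54, adjusted p = 0.703), both with an unadjusted p under 0.05. Of all tested loci, 6.0% were higher in IUGR pigs at such a p, and 8.39% did not overlap with IUGR higher.

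The other 9 SLC6 genes lay under the filter. SLC6A18 and SLC6A19, the neutral amino acid carriers of kidney and gut, were listed at 0 in every library, as were SLC7A3 and SLC7A14. SLC6A2, the noradrenaline carrier, was at most 0.0593 FPKM in the normal pigs, at 0.0808 FPKM in IUGR 1, and at 0.836 and 0.685 FPKM in IUGR 2 and IUGR 3. Of the 20 transporters under the filter, these 4 were at 0 throughout, 10 others stayed below 0.1 FPKM in every pig, and 6 reached at least 0.1 FPKM in some pig. The groups of SLC6A2, SLC7A1 and SLC38A11 (IUGR higher) and of SLC36A3 (IUGR at 0) did not overlap either, but these low values were left out of the main fit. The share of all loci under the filter that do not overlap was not computed. In the alternative without the filter, 0 of the 41 transporters were called. The limma adjusted p there was 0.370 for SLC36A3, 0.594 for SLC7A1 and 0.857 for both SLC38A11 and SLC6A2.

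SLC43A2 had 31.6, 19.0 and 23.2 FPKM in Normal 1, 2 and 3, and 20.1, 26.3 and 22.3 in IUGR 1, 2 and 3. It was the fourth most abundant transporter, with overlapping groups and a log2 fold change of -0.08 (95% interval -0.67 to 0.51, limma adjusted p = 0.956). The proton-coupled SLC36A4 was at 2.81 ± 0.773 and 2.39 ± 0.486 FPKM, and SLC36A1 (PAT1), which releases small amino acids from lysosomes, at 1.92 ± 0.246 and 1.70 ± 0.142 FPKM (SD, n = 3). Neither was called.

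Over the 21 tested transporters, 0 were called in either direction by limma, where 3 of all 14727 loci (0.0204%) were. At an unadjusted p under 0.05, SLC38A1 and SLC1A2 were lower in IUGR pigs and 0 were higher, against 0.794% of all loci lower and 6.0% higher (6.79% in either direction). Both SLC38A1 and SLC38A3 had groups that did not overlap with IUGR lower, and SLC38A5 with IUGR higher, against 1.22% and 8.39% of all loci. The log2 fold change was above 0 for 8 transporters and below 0 for 13, whereas 79.2% of all loci were above 0. The median of the 21 was -0.10, beside 0.15 for all loci, and 15 of the 21 lay below that overall median, which by its definition has 50.0% of loci below it. After scaling by the median, the groups did not overlap for SLC1A1, SLC38A1, SLC38A6 and SLC6A12 in the lower direction and for SLC38A5 in the higher, against 6.29% and 9.48% of all loci.

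**Figure D3:**
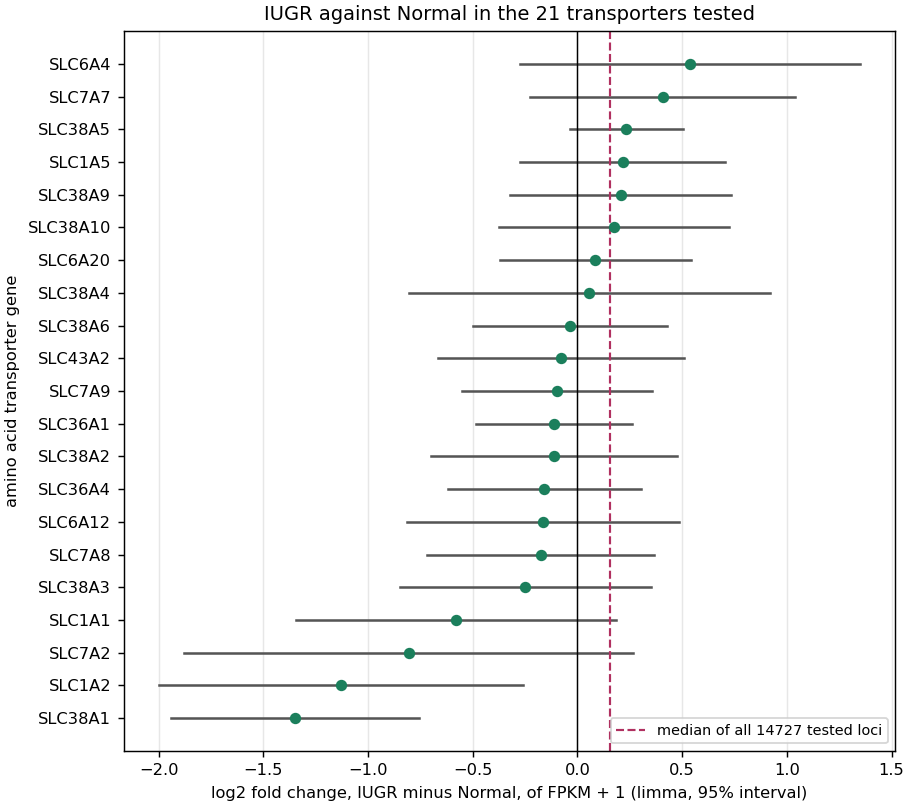
Log2 fold change of FPKM + 1 (IUGR minus normal, limma) of each of the 21 tested transporters with its 95% interval, and the median of all 14727 tested loci as a dashed line at 0.15. The intervals of SLC38A1 (-1.94 to -0.76) and SLC1A2 (-2.0 to -0.26) lie below 0, those of the other genes include 0, and 15 points lie to the left of the dashed line.

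As a share of the summed FPKM of annotated loci, the 41 genes took 0.144, 0.153 and 0.116% in Normal 1, 2 and 3, and 0.102, 0.110 and 0.112% in IUGR 1, 2 and 3. The shares of the IUGR pigs were below those of the normal pigs, by little between Normal 3 and IUGR 3. Divided instead by the median FPKM of the tested loci, the same sums were 164, 141 and 120 in normal against 106, 122 and 126 in IUGR pigs, and the groups overlapped. Since SLC38A4 outweighs the rest, the share without it, a choice made after its values were seen, was also computed, at 0.0538, 0.0585 and 0.0535% in normal against 0.0396, 0.0380 and 0.0363% in IUGR pigs. Over the median of the tested loci, the sums without SLC38A4 were 61.2, 53.8 and 55.5 in normal against 41.0, 42.3 and 40.9 in IUGR pigs. Not divided by either, the FPKM sums without SLC38A4 were 363, 229 and 213 in normal against 198, 246 and 209 in IUGR pigs, and the groups overlapped. The shares have no test, and none was computed for another set of genes. They depend on the summed FPKM of the annotated loci, in which ALB counts as 0. That sum was highest in Normal 1 and lowest in Normal 2 and Normal 3. The part of the marker levels of other cells given above was not tested.

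**Figure D4:**
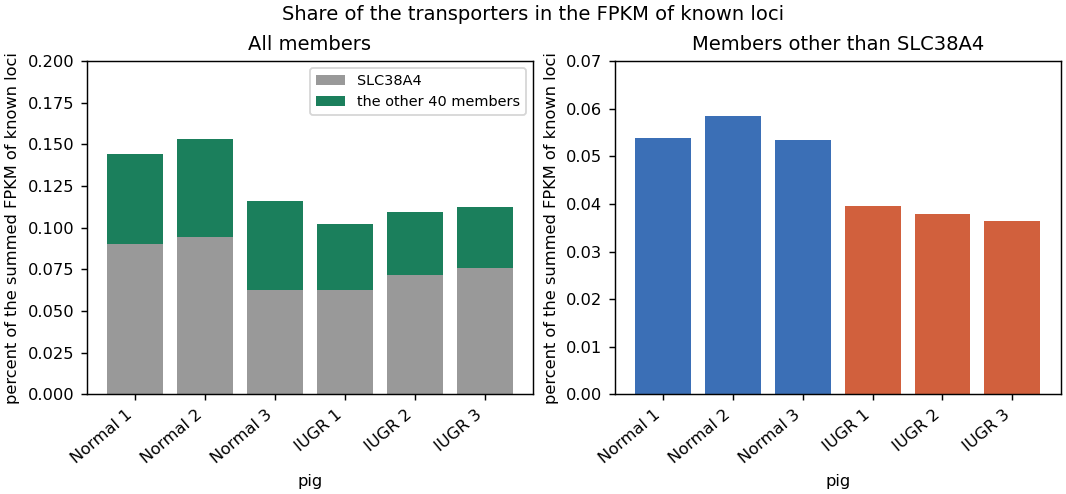
Percent of the summed FPKM of annotated loci taken by the amino acid transporters in each pig, with SLC38A4 in grey and the other members in green (left), and without SLC38A4 on its own axis (right). Without SLC38A4, the normal pigs (blue) sit between 0.0535 and 0.0585% and the IUGR pigs (red) between 0.0363 and 0.0396%. The FPKM sums without SLC38A4, not divided by that total, overlapped between the groups.

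Compared by mapped ratio instead of by group, 7 transporters were higher in every library of the higher ratio (SLC38A4, SLC6A12, SLC7A7, SLC38A9, SLC38A10, SLC38A6 and SLC6A20) and 0 were lower, against 44.3% and 1.14% of all loci. By limma, SLC7A7 was called higher in the libraries of the higher ratio (log2 difference 0.74, adjusted p = 0.0421), against 7.50% of all loci called higher and 0.143% lower. With the group in the same fit it was not called (adjusted p = 0.0717), and 0 transporters were. The median difference between the sets was 0.28 for the transporters and 0.32 for all loci. After scaling by the median, 2 transporters were higher and 2 lower in every library of the higher ratio, against 13.0% and 8.05% of all loci, and 0 were called by limma, as were 4 of all loci.

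Several of these genes are neighbours on the genome, at like or unlike levels in liver. SLC38A1, SLC38A2 and SLC38A4 follow each other on chromosome 5, with gaps of 38.02 and 341 kb and mean levels of 3.86, 7.21 and 407 FPKM. SLC6A12 and SLC6A13 lie 4.58 kb apart at 22.5 and 0.00524 FPKM, and SLC7A8 and SLC7A7 lie 181 kb apart at 1.87 and 13.97 FPKM. SLC36A1 and SLC36A3 are 132 kb apart, at 1.81 and 0.0112 FPKM. SLC6A18 and SLC6A19, both listed at 0, lie 1.45 kb apart, and SLC6A3, 53.3 kb from SLC6A18, was at 0.0358 FPKM. In all, 8 pairs of neighbours were less than 500 kb apart.

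The genes around amino acid transport were taken from fixed lists. Of 14 tested carriers of amino acids and peptides outside these families, 0 were called and 0 had an unadjusted p under 0.05 in the limma fit, with a median log2 fold change of 0.13. Among them, SLC15A2, a carrier of small peptides, had 47.5, 34.3 and 26.9 FPKM in normal and 34.6, 60.0 and 57.3 in IUGR pigs (0.47, adjusted p = 0.862). SLC25A13, the mitochondrial aspartate and glutamate exchanger, stood at 0.39 (adjusted p = 0.874), and CTNS, which exports cystine from lysosomes, at 0.40 (adjusted p = 0.859).

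Of the 6 tested partner and regulator proteins, 0 were called and 0 had an unadjusted p under 0.05 by limma, and all 6 fold changes were above 0, as were 79.2% of all loci, at a median of 0.25. TMEM27 (collectrin), which brings SLC6A19 to the kidney cell surface, had 55.0, 38.8 and 15.0 FPKM in normal and 32.8, 95.3 and 60.0 in IUGR pigs (log2 fold change 0.82, adjusted p = 0.824), although SLC6A19 itself was listed at 0. LAPTM4B, which brings amino acid carriers to lysosomes, had a mean of 165 FPKM and a log2 fold change of 0.26.

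Among 13 tested enzymes of glutamine and glutamate, 0 were called by limma and GPT2, the mitochondrial alanine aminotransferase, had an unadjusted p under 0.05. It stood at 28.6, 2.35 and 12.6 FPKM in normal and 2.91, 2.30 and 2.31 in IUGR pigs (log2 fold change -1.66, adjusted p = 0.529), with Normal 2 as low as the IUGR pigs. GOT2, the mitochondrial aspartate aminotransferase, was higher in each IUGR pig, at 26.5, 28.7 and 22.4 against 28.8, 47.9 and 45.0 FPKM (0.60, adjusted p = 0.747). GLUL, the glutamine synthetase of the hepatocytes around the central vein, was at 0.29 (adjusted p = 0.900). The median of the list was 0.01.

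Of 27 tested genes through which mTORC1 senses amino acids, 0 were called and 0 had an unadjusted p under 0.05 by limma, with 23 fold changes above 0 (79.2% of all loci were) and 4 below and a median of 0.12. SESN3, a sestrin, was at 0.49 and LAMTOR4, a subunit of the lysosomal Ragulator complex, at 0.51 (adjusted p = 0.779 and 0.847). The medians of these lists were below the 0.15 of all loci, apart from the partner proteins at 0.25.

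**Figure D5:**
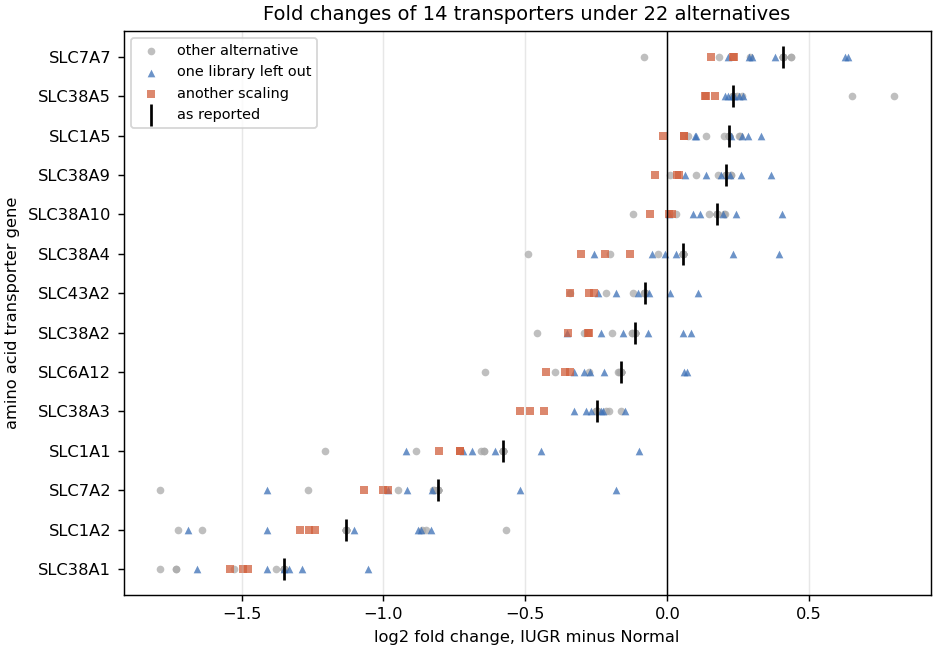
Log2 fold changes (IUGR minus normal) of the 14 transporters described by pig, as reported (black bars) and under the 22 alternatives, with squares for other scalings, triangles for 1 library left out and grey points for the rest. SLC38A1, between -1.79 and -1.06, stays below 0 in all of them, as do SLC1A2, SLC7A2, SLC1A1 and SLC38A3, whereas the points of SLC38A4 lie on both sides of 0.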

How the data were processed

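Each of 3 normal and 3 IUGR livers gave 1 poly(A) RNA-seq library. The authors aligned the reads with TopHat2 2.0.14 and Bowtie2 2.0.6 and assembled them with Cufflinks 2.2.1. They deposited FPKM from Cuffdiff 2.1.1 for 121055 loci, of which 22571 carry an Ensembl identifier. The submitters' processing notes name Sscrofa10.2, the build of the coordinates given here, whereas the text of the study names a later build. The notes also name edgeR, which needs counts and was not run here.

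log2(FPKM + 1) was fitted with limma 3.58.1 in R 4.3.3 (lmFit, eBayes with a trend, two-sided), with adjustment over 14727 annotated loci of mean FPKM at least 0.3, and the fit was tested on simulated data. Estimates had a status other than OK at 59 loci, 0 of them of a transporter. Depth per value is unknown, and p-values rest on the spread between pigs. Groups came from the labels. The members and the gene lists were chosen with earlier results of these data known. Transporters are given by pig where their mean was at least 5 FPKM or where, among those tested, the groups did not overlap or the unadjusted p was under 0.05, and up to 4 genes of lowest p and 2 of highest level are named from each list. SLC6A2, SLC7A1 and the heavy chains, and the genes of the closing section, were named after their values were seen.

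Alternatives changed the pseudocount, filter, loci, scaling, variance model, mapped ratio, replicate block, thresholds and libraries. The mapped ratio is from the library table of the study. 0 columns of values for a sample were left unused. The deviations of normal and IUGR pigs were correlated within and across replicate numbers.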

Additional observations from a re-analysis of the deposited data

How the results depend on the processing

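Of the 307 fold changes of 14 transporters under 22 alternatives, 282 kept their direction and their side of the threshold, 5 kept their direction and became called, and 20 turned sign, in 8 of the 14 genes. The count of transporters called lower, 0 as reported, was 1 with robust variance estimation (SLC38A1), 2 with the replicate block (SLC38A1 and SLC1A2) and 0 to 2 with 1 library left out, 2 of them without IUGR 1. Over all loci, 1 was called higher and 2 lower as reported, 30 and 6 with robust estimation, 128 and 30 without IUGR 1 and 166 and 79 with the replicate block. The correlations of deviations were -0.22, -0.07 and -0.17 for same-numbered pigs, and -0.18 to 0.23 for pigs of different numbers. Such values do not decide whether any of these pigs were litter mates, which is not known, and the block was kept as an alternative.

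SLC38A4, at 0.06, was -0.13 after scaling by the median, -0.22 by the sum and -0.30 by quantiles, -0.49 and -0.20 when the mapped ratio entered as a covariate or a factor, -0.032 with IUGR 2 and IUGR 3 averaged, and -0.26 to 0.39 with 1 library left out. Sum scaling gave -0.016 for SLC1A5, -0.062 for SLC38A10 and -0.045 for SLC38A9. The covariate gave -0.12 for SLC38A10 and -0.082 for SLC7A7. With 1 library left out, SLC38A2 ranged from -0.355 to 0.084, SLC43A2 from -0.24 to 0.11 and SLC6A12 from -0.33 to 0.070. The cause of these turns was not tested, and each value is within 0.5 of 0. The median of the tested transporters was -0.22 to 0.09 with 1 library left out and otherwise between -0.29 (sum scaling) and 0 (no filter on low values). Scaling moved the median of all loci from 0.15 to 0.02 (median), -0.05 (sum) and -0.01 (quantile). The thresholds of the study gave 0 transporters. The number of pigs, 3 a group, limits all tests.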

Other observations

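Normal 1 had the highest summed FPKM of annotated loci and the highest median of tested loci (5.94 FPKM) of the 6 libraries. The robust SD of the log2 ratio between Normal 1 and each other library was 0.26 to 0.31. This was within the range of the remaining pairs, 0.10 to 0.33. On unscaled FPKM, the level in Normal 1 was at least 1.5 times that of each other library at 3.41% of the 14727 tested loci, against at most 0.937% for any other library. Beside SLC7A2, SLC1A1 and SLC38A1, this held for 3 of 13 tested enzymes of glutamine and glutamate, 1 of 14 other amino acid carriers, 0 of 6 partner proteins and 0 of 27 genes of mTORC1 sensing. Of the tested cell markers, it held for 1 of 7 of hepatocytes and 1 of 4 of cholangiocytes (CFTR, 5.52 FPKM with the next pig at 3.54). It held for 0 markers of each other cell type.

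The list genes that met this limit, with the hepatocyte marker CPS1, are given as unscaled values, chosen after they were seen. Levels scaled by the library median, which was highest in Normal 1, are not given for them. CPS1, the first enzyme of the urea cycle, was at 726 FPKM in Normal 1 and at 227 to 372 FPKM in the other pigs. SLC25A15, the mitochondrial ornithine carrier, was at 76.9 FPKM, with the next pig at 40.01. GLS2, the liver glutaminase, was at 59.5 FPKM, with the next pig at 35.6. GOT1, the cytosolic aspartate aminotransferase, was at 66.4 FPKM, with the next pig at 35.7, and GPT2 was at 28.6 FPKM, with the next pig at 12.6.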
